A study of Mus musculus with 12 samples.

Results

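The genes described here are 10 genes for the cytoskeleton of nerve cell processes and for transport along it: the neurofilament subunits Nefl, Nefm, Nefh and Ina, the microtubule-associated protein genes Map1a, Map1b, Map2 and Mapt, and the kinesin heavy chain genes Kif5a and Kif5c. They are the rows of the deposited table whose symbols are on this list, 10 of 24060 genes. The members were chosen by symbol and selected on measured values, with the level of each gene in the 12 libraries and the ratio of pulldown to input in each animal already known. Therefore those values, and everything computed for the 10 genes from the pulldown against input, are given as a description with no test of the 10 genes; where the number of them called in such a comparison is printed, nothing is read from it. The diets within a fraction were nevertheless compared by a test across all genes, and ratios between the 10 genes in input by a permutation test. The levels were known beforehand, so the p-values of the 10 genes and of these ratios are no support for a difference.

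Neurofilaments are the intermediate filaments of axons, built from a light, a medium and a heavy subunit together with alpha-internexin, and they set the calibre of large axons. Microtubules run along axons and dendrites as tracks, which the MAP1 proteins, MAP2 and tau bind and stabilise, and kinesin-1 motors walk along them carrying vesicles, mitochondria and neurofilaments away from the cell body. In white matter the axons come largely from neurons whose cell bodies lie in grey matter.

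Brain white matter was taken from 6 Tie2-Cre:Rpl22-HA mice, 3 of which (animals 489, 555 and 556) ate a control fat diet that drew 10% of its kcal from fat (CFD) and 3 (animals 516, 517 and 676) a high fat diet that drew 60% (HFD). All 6 carried the same Cre and the same tagged ribosome allele, the methods describe the mice as male, and the labels give no age. Cre driven by the Tie2 (Tek) promoter switches on an HA tag on the ribosomal protein Rpl22, and the RNA bound to tagged ribosomes was pulled down (IP) beside whole white matter RNA of the same animal (input), so that 4 groups of 3 libraries were made: CFD input, CFD IP, HFD input and HFD IP. Libraries whose titles share a sample number are taken as from the same animal. The Tie2 promoter is active in endothelium and also in some blood-forming cells, so their descendants can carry the tag too. The input holds RNA of every cell in the piece of tissue.

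The 12 libraries held 19567186 to 33660708 counts, and 12793 to 16427 genes had a count. Rn45s, the precursor of ribosomal RNA, took 38.7% to 42.3% of the counts in CFD IP, 17.1% to 19.1% in HFD IP and 6.34% to 14.2% in the inputs, and Lars2 moved with it. The labelled cell type was checked against its markers. The 12 neuron markers summed to between 12046 and 18230 CPM (counts scaled to a common library size, after weighting each library by the trimmed mean of M values) in every library, whereas the 10 endothelial markers summed to between 3.87 and 213 in the 6 IP libraries and to between 10.2 and 41.3 in the 6 inputs. Cldn5, the tight junction protein of brain endothelium, was at 0 in 4 of the 6 IP libraries, Tek itself in 3 and Ly6c1 in 2. Pecam1, Flt1, Kdr, Slco1a4 and Esam were each at 0 in 1 IP library, and Cdh5 and Egfl7 in none. The sum of 213 CPM, in the CFD IP of animal 556, came from 3803 counts. Egfl7 reached 3650 counts in 1 library. Summed endothelial markers were higher in the IP than in the input of 3 of 6 animals, with log2 ratios from -2.14 to 3.39. The IP is therefore named by its label and not as endothelial RNA in what follows. In the inputs the 8 oligodendrocyte markers summed to between 2862 and 4773 CPM, below the 12 neuron markers in each input. How much RNA of neuronal cell bodies the piece of tissue held was not tested. White matter is thus likewise the name that the label gives to the input. The HFD input library of animal 676 held 133 counts of Xist, an RNA made from the inactive X chromosome of females, against at most 7 in each of the other 11 libraries, and results that rest on this animal are also given without it.

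**Figure D1:**
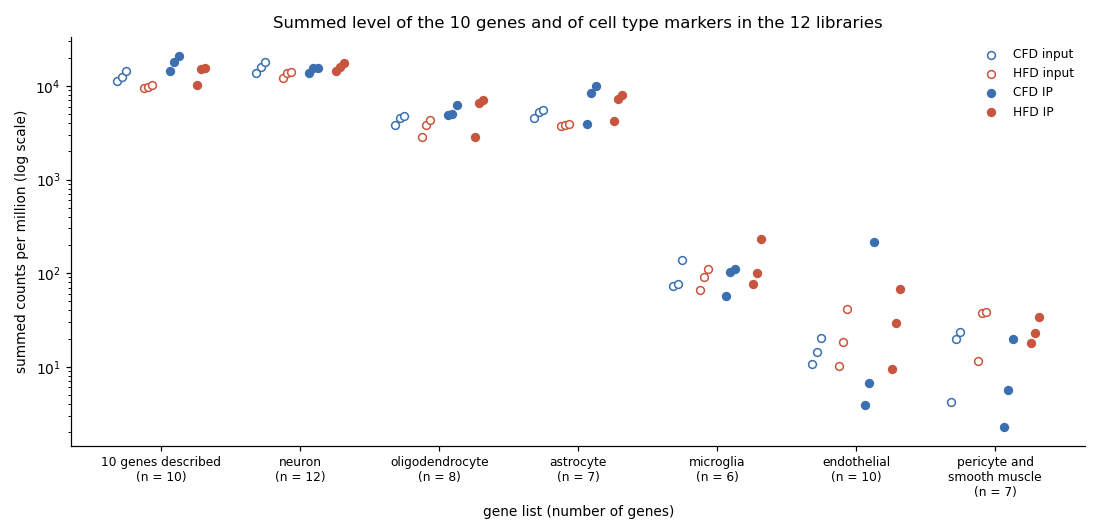
Summed CPM, on a log scale, of the 10 genes described and of 6 lists of cell type markers, with 1 point for each of the 12 libraries (open, input; filled, IP; blue, CFD; red, HFD). The 10 genes summed to between 9447 and 21001, as the neuron list did to between 12046 and 18230, while the endothelial list stayed at or below 213 in every library.

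All 10 genes were plentiful. Each had at least 1390 counts in every library, the lowest being Nefh, and each passed the filter on low counts. Together they held 1.02% to 1.62% of the counts of a library. The summed level of the 10 genes was 0.80 ± 0.024 times that of the 12 neuron markers in CFD input (SD, n = 3), 0.74 ± 0.049 in HFD input, 1.22 ± 0.30 in CFD IP and 0.84 ± 0.12 in HFD IP. The range in CFD IP, 0.94 to 1.54, lay above that of both inputs, 0.69 to 0.83.

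In mm10 coordinates (RefSeq GRCm38.p6) Nefl lies at chr14:68083863-68089095 and Nefm at chr14:68119545-68125004, 30449 bases apart, with Nefh at chr11:4938754-4948064 and Ina at chr19:47014681-47025327. Map1a spans chr2:121289590-121310832, Map1b chr13:99421464-99516602, Map2 chr1:66175202-66442583 and Mapt chr11:104229409-104332090. Kif5a spans chr10:127225695-127266348 and Kif5c chr2:49619286-49774778. The counts were made over these genes as the authors annotated them, and whether strand was used is not given in the sources used here. Other coding or long noncoding genes of the table overlap 5 of the 10, namely A230070E04Rik at Nefm, Ap1b1 at Nefh, Nt5c2 at Ina, Trp53bp1 and Ppip5k1 at Map1a, and Dctn2 at Kif5a. A230070E04Rik had 49 to 927 counts, up to 17.1% of those of Nefm in the same library. Ap1b1, which shares 745 bases with Nefh, had 1380 to 3967 counts, up to 199% of those of Nefh, the largest share of any of these neighbours.

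RefSeq promoter windows were matched by symbol for 5 of the 10 genes, Ina, Map1a, Map1b, Map2 and Kif5c. Those of Nefl, Nefm, Nefh, Mapt and Kif5a were not used here. The 3 windows below are shown because Map1b and Kif5c had the most alike profiles over the 12 libraries of all pairs of the 10 genes, and Map1a belonged to the least alike pair (values further on). Each is the 250 bases before the start given in the RefSeq promoter table, which for Map1a lies inside the gene span above, so that 12 bases of the window do too. They are written 5′ to 3′ on the strand of the gene, with motif matches on either strand in capitals. The GC box was searched as GGGCGG. The letters searched for the CAAT box, a site bound by the factor NF-Y, were CCAAT. The sequence TATAAA was used for the TATA box, which positions the start of transcription. GC boxes that share bases with each other were counted separately, and a match to 1 motif may overlap a match to another. The windows lie at chr13:99516603-99516852 (minus strand), chr2:49619036-49619285 (plus strand) and chr2:121289352-121289601 (plus strand).
Map1b: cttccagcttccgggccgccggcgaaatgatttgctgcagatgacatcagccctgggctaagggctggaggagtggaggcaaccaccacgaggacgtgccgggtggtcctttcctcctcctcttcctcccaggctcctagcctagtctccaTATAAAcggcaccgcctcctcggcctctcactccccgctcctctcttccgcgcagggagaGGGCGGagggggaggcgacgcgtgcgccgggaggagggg
Kif5c: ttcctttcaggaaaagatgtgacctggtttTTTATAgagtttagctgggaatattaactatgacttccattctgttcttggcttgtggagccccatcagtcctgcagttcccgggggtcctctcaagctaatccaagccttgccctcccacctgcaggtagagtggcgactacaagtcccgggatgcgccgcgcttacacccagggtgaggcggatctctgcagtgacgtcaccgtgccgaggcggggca
Map1a: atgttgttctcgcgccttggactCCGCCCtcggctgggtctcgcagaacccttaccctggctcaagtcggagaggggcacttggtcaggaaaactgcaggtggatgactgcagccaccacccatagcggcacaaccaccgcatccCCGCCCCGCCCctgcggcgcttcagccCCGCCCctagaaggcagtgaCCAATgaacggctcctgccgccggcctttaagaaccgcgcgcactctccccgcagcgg
Map1a held 4 GC boxes and 1 CAAT box, Map1b held 1 GC box and 1 TATA box, and Kif5c held no GC box and 1 TATA box. Of the other windows, Ina held 2 GC boxes and Map2 held 5. Among 32851 mouse windows of the same length, 32.7% held a GC box, 33.8% a CAAT box and 12.4% a TATA box. The 5 windows were 55.2% to 81.2% G and C with 11 to 34 CpG, where the median window had 52.4% and 6. The windows of Map1b and Kif5c each held a TATA box match, at unlike places. That of Map1b was on the strand of the gene, past the middle of the window. The match in Kif5c was on the opposite strand, near the 5′ end and so far from the start. These are descriptions of letters, and nothing is read from them for the profiles of the 2 genes.

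Between genes, levels are compared as CPM per kilobase of the length given in the table. Kif5a and Map1b stood at the top of all 4 groups and Nefh at the bottom. In CFD input Kif5a was at 450 ± 158 CPM per kilobase (SD, n = 3) and Map1b at 400 ± 46.2, with libraries that overlapped. Nefl followed at 244 ± 40.7, with no overlap with Map1b above it or Map1a below it, although its highest library passed the lowest of Kif5a. Map1a at 178 ± 20.6, Map2 at 163 ± 49.2 and Kif5c at 136 ± 21.8 CPM per kilobase overlapped from each to the next. Ina at 71.0 ± 16.1, Nefm at 69.4 ± 2.76 and Mapt at 57.6 ± 14.3 could not be ordered either, and Nefh lay below all others at 23.1 ± 5.52. In HFD input Map1b was at 327 ± 65.0 CPM per kilobase and Kif5a at 261 ± 88.8, again overlapping, and Nefh was at 15.7 ± 5.29. In CFD IP Kif5a was at 710 ± 161, Map1b at 523 ± 61.3, Map1a at 358 ± 195 and Nefl at 310 ± 65.8 CPM per kilobase, each overlapping the next. In HFD IP Map1b came at 520 ± 79.6 and Kif5a at 374 ± 180.

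**Figure D2:**
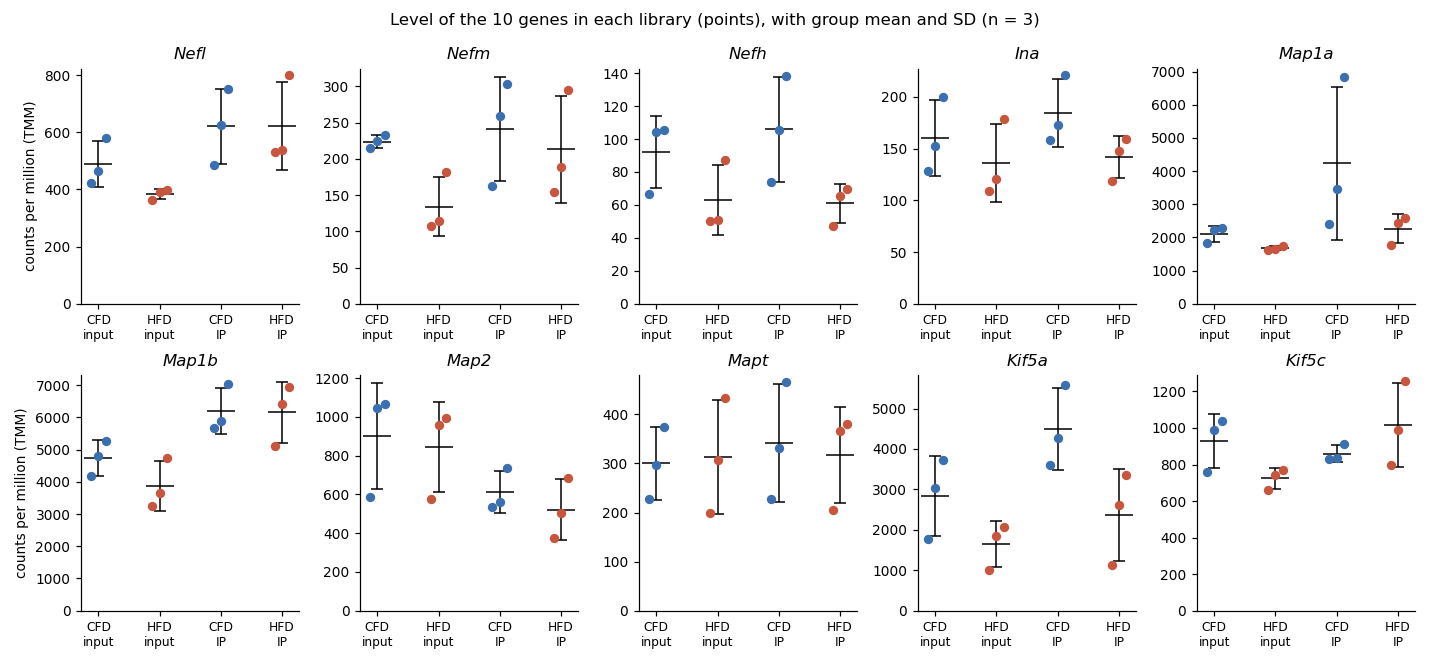
Level of each of the 10 genes in CPM (vertical axes, each starting at 0) in CFD input, HFD input, CFD IP and HFD IP. Points are the 3 libraries of a group, the horizontal bar is their mean and the whiskers their SD. The HFD input points lie below the CFD input points without overlap for Nefl, Nefm and Map1a, and the HFD IP points below the CFD IP points for Nefh and Kif5a.

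Replicates of these genes lay close together. The median over the 10 genes of the SD of log2 CPM within a group was 0.28 in CFD input, 0.32 in CFD IP, 0.40 in HFD input and 0.33 in HFD IP, against 0.83, 1.12, 0.62 and 1.15 over all 14354 genes tested. Among the 1436 tested genes of the highest levels (10% of those tested), where most of the 10 belong, the same medians were 0.29, 0.42, 0.30 and 0.40. The 10 genes were thus about as variable as other abundant genes.

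The diets were compared first in the input, which is labelled white matter. Of the 10 genes, 9 were fitted lower in HFD input than in CFD input and Mapt alone higher, and the median of their log2 fold changes was -0.34 beside -0.004 over all genes tested. None of these differences passed the test. edgeR's quasi-likelihood test called no gene at all at an adjusted p under 0.1 (0 of 14354 genes, 0%), while 292 genes had an unadjusted p under 0.05, among them Nefm and Kif5a, and DESeq2 called 31 genes and none of the 10. The 12 neuron markers were also all fitted lower in HFD input, at a median of -0.23 (log2) and with none called. Their summed level ranged from 13769 to 18230 CPM in CFD input and from 12046 to 14151 in HFD input, with overlap. The astrocyte markers were at 4541 to 5576 CPM in CFD input and at 3768 to 3959 in HFD input, with no overlap. The oligodendrocyte markers were at 3870 to 4773 and at 2862 to 4303 CPM, with overlap. The part of these moves in the values of the 10 genes was not tested. In bulk tissue, fewer cells of a type and less RNA per cell cannot be told apart.

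Nefl, the light subunit on which the filament is built, was at 466, 422 and 580 CPM in CFD input (animals 489, 555 and 556) and at 397, 393 and 362 in HFD input (animals 516, 517 and 676). Every HFD library lay below every CFD library. The HFD level was 0.79 times the CFD level, a log2 fold change of -0.35 (SE 0.27, edgeR adjusted p = 1). Nefm, the medium subunit, was at 215, 233 and 224 CPM in CFD input and at 181, 107 and 114 in HFD input. The groups did not overlap here either, and the log2 fold change was -0.74 (SE 0.34, edgeR unadjusted p = 0.043, adjusted p = 1). Nefh, the heavy subunit whose side arms space filaments apart, was at 104, 105 and 66.6 CPM in CFD input and at 87.2, 50.3 and 51.0 in HFD input, with groups that overlapped. Ina, alpha-internexin, was at 129, 200 and 152 CPM in CFD input and at 179, 120 and 109 in HFD input, also overlapping. Animal 516 had the highest HFD level of Nefl, Nefm, Nefh and Ina alike.

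Map1a, which binds microtubules of mature neurons, was at 2273, 2220 and 1827 CPM in CFD input and at 1737, 1645 and 1634 in HFD input. It was the third of the 3 genes whose diets did not overlap in input, with a log2 fold change of -0.33 (SE 0.29, edgeR adjusted p = 1). All 3 of these genes were lower in HFD and none of the 10 was higher without overlap. Over all genes tested, 4.33% were lower in every HFD input than in every CFD input. The list was chosen with these levels known, so nothing is read from the count of 3. Map1b, its relative from growing axons, was at 4801, 5259 and 4169 CPM in CFD input and at 3236, 3651 and 4728 in HFD input, where animal 676 reached the CFD range. Map2, which marks dendrites and cell bodies, was at 588, 1049 and 1069 CPM in CFD input and at 997, 959 and 575 in HFD input. Mapt, the gene of axonal tau, was at 298, 227 and 375 CPM in CFD input and at 307, 433 and 200 in HFD input, so that both had 1 animal of each diet at the low end.

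Kif5a, the heavy chain of neuronal kinesin-1 that carries neurofilaments, was at 1764, 3726 and 3023 CPM in CFD input and at 1856, 2076 and 1014 in HFD input. Its log2 fold change, -0.78 (SE 0.35, edgeR unadjusted p = 0.034, adjusted p = 1), was the lowest of the 10 genes, although animal 489 on CFD lay within the HFD range. Without animal 676 it was -0.53. Kif5c, a second neuronal heavy chain, was at 760, 1040 and 989 CPM in CFD input and at 745, 770 and 659 in HFD input, a log2 fold change of -0.36 (SE 0.25, edgeR adjusted p = 1) with groups that overlapped.

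**Figure D3:**
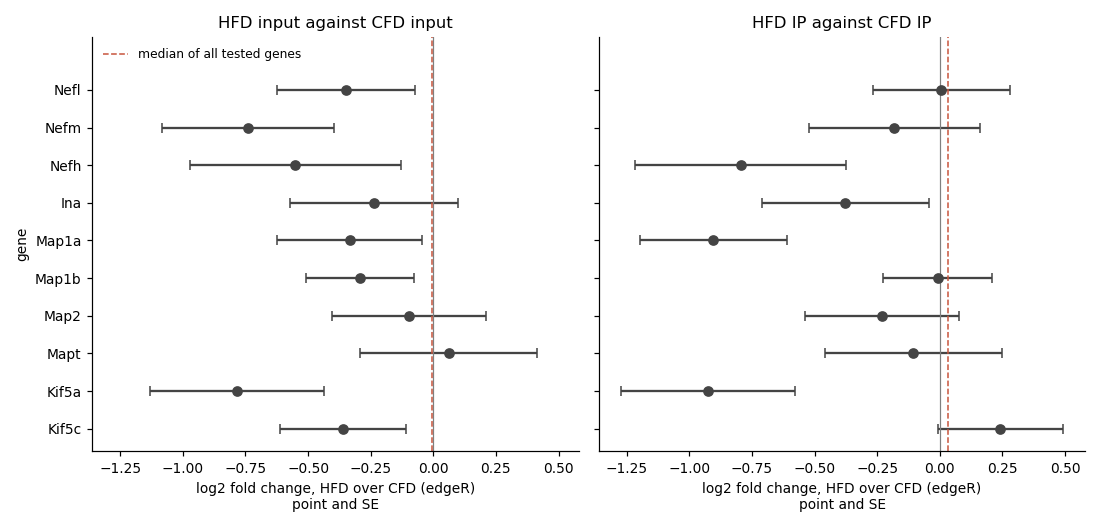
Log2 fold change of HFD over CFD for each of the 10 genes (point) with its standard error (whiskers), fitted by edgeR over 12 libraries, in input (left) and in IP (right). The dashed line is the median of all 14354 genes tested. In input 9 of 10 points lie below 0, and in IP Map1a, Kif5a and Nefh lie lowest, at -0.90, -0.93 and -0.80.

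In the pulldown the diets were further apart for Map1a, Kif5a and Nefh than for the other 7 genes, but no difference passed the test. Of the 10 genes, 8 were fitted lower in HFD IP than in CFD IP, Nefl and Kif5c being higher, and the median of the log2 fold changes was -0.21 beside 0.03 over all genes. edgeR called 8 of the 14354 genes (0.0557%) and none of the 10, and 1565 genes had an unadjusted p under 0.05, among them Map1a and Kif5a. Rn45s took 38.7% to 42.3% of the counts in CFD IP and 17.1% to 19.1% in HFD IP, so its share differed with diet in the same libraries. With Rn45s and Lars2 left out before scaling, the log2 fold changes of Map1a and Kif5a were -0.93 and -0.95.

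Map1a stood at 6833, 2411 and 3456 CPM in CFD IP and at 2584, 2432 and 1773 in HFD IP. The level in animal 489 was far above all others, and animal 555 on CFD lay within the HFD range. The log2 fold change was -0.90 (SE 0.29, edgeR unadjusted p = 0.0053, adjusted p = 0.33) and was -0.39 without animal 489. Kif5a stood at 4261, 3597 and 5589 CPM in CFD IP and at 3344, 2612 and 1120 in HFD IP, with no overlap. Its log2 fold change was -0.93 (SE 0.35, edgeR unadjusted p = 0.014, adjusted p = 0.37), and -0.59 without animal 676, which had the lowest Kif5a level of its group in both fractions. With no filter on low counts edgeR called both genes, at an adjusted p of 0.070 for Map1a and 0.053 for Kif5a, where the alternatives together ran from 0.070 to 0.93 and from 0.053 to 0.93.

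Nefh stood at 138, 73.9 and 106 CPM in CFD IP and at 69.8, 65.7 and 47.4 in HFD IP. Every HFD library again lay below every CFD library, with a log2 fold change of -0.80 (SE 0.42, edgeR adjusted p = 0.49). Kif5a and Nefh were the 2 of 10 genes lower in every HFD IP than in every CFD IP, which held for 4.66% of all genes tested, and none of the 10 was higher in this way. As in input, the levels were known when the genes were chosen, and nothing is read from this count. The other 2 neurofilament triplet genes had no such gap. Nefl was at 487, 626 and 750 CPM in CFD IP and at 801, 537 and 532 in HFD IP, a log2 fold change of 0.01 (SE 0.27) whose sign depended on the scaling, being -0.02 with relative log expression factors. Nefm was at 303, 163 and 259 CPM in CFD IP and at 296, 154 and 189 in HFD IP. Ina was at 159, 221 and 172 CPM in CFD IP and at 159, 119 and 147 in HFD IP.

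Map1b differed least of the microtubule-associated genes, at 7024, 5664 and 5900 CPM in CFD IP and 6427, 6938 and 5110 in HFD IP, a log2 fold change of -0.01 (SE 0.22). Map2 was at 738, 538 and 560 CPM in CFD IP and at 686, 504 and 374 in HFD IP. Mapt was at 227, 466 and 331 CPM in CFD IP and at 366, 381 and 204 in HFD IP, with groups that overlapped. Kif5c went the other way from Kif5a, at 831, 834 and 911 CPM in CFD IP and at 991, 1258 and 798 in HFD IP, a log2 fold change of 0.24 (SE 0.25, edgeR adjusted p = 0.74).

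The pulldown was then set against the input of the same animal. The median log2 ratio of the 10 genes lay above 0 in all 6 animals, from 0.03 in animal 555 to 0.49 in animal 516, while the median of all genes tested lay from -0.25 to 0.06. In animal 555 the median of the 10 genes was below that of all genes, 0.03 against 0.06, and 5 of the 10 were above 0. The summed neuron markers had ratios from -0.23 to 0.31, higher in the IP of the 3 HFD animals and lower in that of the 3 CFD animals. The astrocyte markers were higher in the IP of 5 of 6 animals, up to 1.05, and the oligodendrocyte markers in 5 of 6, up to 0.80. What part these moves had in the ratios of the 10 genes was not tested.

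Nefl, Map1a and Map1b were higher in the IP than in the input of all 6 animals, 3 of 10 genes, where this held for 4.16% of all genes tested; the list was chosen with these ratios known, so nothing is read from that count. On CFD the log2 ratio of Nefl was 0.06, 0.57 and 0.37 (animals 489, 555 and 556), and on HFD it was 1.01, 0.45 and 0.55 (animals 516, 517 and 676). That of Map1a was 1.59, 0.12 and 0.92 on CFD, and 0.57, 0.56 and 0.12 on HFD. That of Map1b was 0.55, 0.11 and 0.50 on CFD, and 0.99, 0.93 and 0.11 on HFD. Animals 555 and 676 thus had the smallest ratios of both MAP1 genes, and animal 489 the highest of Map1a.

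Map2 was the exception among the 10, with an IP below the input in 5 of 6 animals. Its log2 ratio was 0.33, -0.96 and -0.93 on CFD, and -0.54, -0.93 and -0.62 on HFD, animal 489 standing apart. Kif5a was above 0 in 5 of 6 animals, at 1.27, -0.05 and 0.89 on CFD and 0.85, 0.33 and 0.14 on HFD. Nefm was above 0 in 5 of 6, at 0.50, -0.52 and 0.21 on CFD and 0.70, 0.52 and 0.73 on HFD. Animal 555 was the one below 0 for both.

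The remaining genes changed side from animal to animal. Kif5c was at 0.13, -0.32 and -0.12 on CFD and 0.41, 0.71 and 0.28 on HFD, so that every HFD ratio was above every CFD ratio, as for Nefm. These were 2 of 10 genes with that order, which 4.88% of all genes tested had. The ratios were known when the list was chosen, so nothing is read from this count either. Ina was above 0 in 4 animals, with a range from -0.17 to 0.43, and Nefh in 3, from -0.51 to 0.67. Mapt was above 0 in 3 animals, from -0.39 to 1.04, the highest being animal 555.

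**Figure D4:**
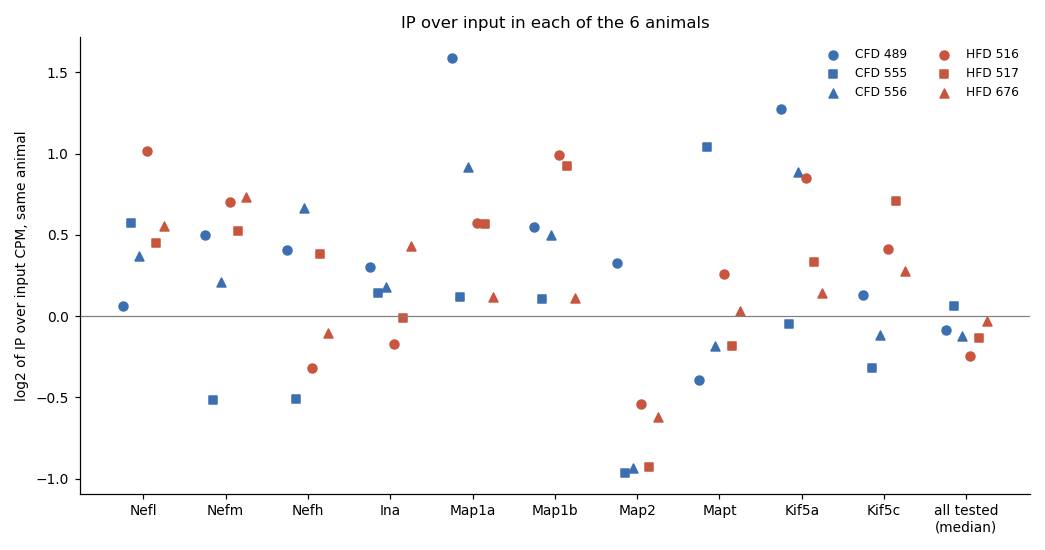
Log2 of the IP level over the input level of the same animal (vertical axis) for each of the 10 genes and, at the right, the median of all 14354 genes tested, with 1 point per animal (blue, CFD; red, HFD). Nefl, Map1a and Map1b lie above 0 in 6 of 6 animals and Map2 below 0 in 5 of 6.

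As fitted by edgeR, 8 of the 10 genes were higher in CFD IP than in CFD input, and their median log2 fold change stood at 0.20 beside -0.01 over all genes, led by Map1a at 1.01 (SE 0.29), or 0.53 without animal 489. edgeR called 27 genes in this comparison (0.188%) and none of the 10, and with the animal as a block it called 139 and 1 of the 10, from which nothing is read. On HFD 8 of the 10 were again higher, with a median of 0.46 beside -0.01, led by Nefl at 0.70 (SE 0.27), Map1b at 0.67 (SE 0.22) and Nefm at 0.67 (SE 0.34), and Map2 was at -0.69 (SE 0.31). edgeR called 2 genes (0.0139%), or 24 with the animal as a block, and none of the 10 in either fit. The interaction of diet and fraction ran from -0.57 (SE 0.41) for Map1a to 0.60 (SE 0.35) for Kif5c. Without animal 489 the value of Map1a was -0.11 and the lowest was that of Mapt, -0.40. edgeR called 0 of 14354 genes in it (0%), with 770 at an unadjusted p under 0.05 and 121 called by DESeq2.

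Longer genes had higher ratios in these libraries. The median log2 fold change of IP over input rose over 5 equal classes of gene length from -0.41 in the shortest to 0.10 in the longest on CFD, and from -0.58 to 0.06 on HFD. Of the 10 genes, 6 were in the longest class, Map1a, Map1b, Map2, Mapt, Kif5a and Kif5c. Nefl, at 2001 bases, was the shortest of the 10. The part of length in the ratios was not tested.

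Ratios between members of a family within a library do not depend on the scaling of libraries. Per length, Nefm was at 0.29 times the level of Nefl in CFD input (geometric mean, n = 3) and 0.21 times in HFD input. The difference in log2 ratio was -0.44 (2-sided exact permutation test over animals, p = 0.20). Nefh over Nefl was 0.093 and 0.079 in the inputs (exact p = 0.70), and Ina over Nefl was 0.29 and 0.31 (exact p = 0.60). Kif5c over Kif5a was 0.31 in CFD input and 0.42 in HFD input (exact p = 0.30). Map1b over Map1a was 2.25 and 2.28, and Mapt over Map2 was 0.36 and 0.39 (exact p = 1 for each). Adjusted over the 6 ratios the p-values ran from 0.90 to 1, and 3 animals against 3 cannot give a p below 0.10. The levels behind these ratios were known when the genes were chosen, so nothing is read from these p-values.

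In the pulldown the same ratios are given as values only. Kif5c over Kif5a was 0.18, 0.21 and 0.15 in CFD IP and 0.27, 0.44 and 0.66 in HFD IP, and every HFD library lay above every CFD library. Map1b over Map1a was 1.03, 2.34 and 1.70 in CFD IP and 2.48, 2.85 and 2.87 in HFD IP, again with no overlap. The share of other gene pairs with such a gap was not computed, so nothing is read from these gaps. They also repeat Kif5a and Map1a, whose differences in IP shrank without animal 676 and without animal 489. Nefm over Nefl, Nefh over Nefl, Ina over Nefl and Mapt over Map2 overlapped between the diets, with geometric means of 0.24, 0.084, 0.26 and 0.57 in CFD IP and of 0.21, 0.049, 0.20 and 0.64 in HFD IP.

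From input to IP the balance of tau and MAP2 moved the same way in 5 of 6 animals. The log2 ratio of Mapt over Map2 was higher in the IP by 2.002 in animal 555, by 0.75 in animal 556, by 0.80, 0.75 and 0.65 in the HFD animals 516, 517 and 676, and lower by 0.72 in animal 489 (a difference of -0.72). This repeats Map2, which was itself lower in the IP of the same 5 animals, while Mapt was higher in the IP of 3 of 6. Kif5c over Kif5a was lower in the IP of the 3 CFD animals, with differences of -1.14, -0.27 and -1.005 in animals 489, 555 and 556, and was at -0.44, 0.38 and 0.13 in the HFD animals. Map1b over Map1a moved by -1.04, -0.01 and -0.42 on CFD and by 0.42, 0.36 and -0.01 on HFD. Ina over Nefl was lower in the IP of 5 of 6 animals, from -1.18 to -0.12, and higher by 0.24 in animal 489, the animal that also stood apart for Map2 and Map1a. How many other gene pairs moved alike was not computed, so nothing is read from these counts of animals.

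**Figure D5:**
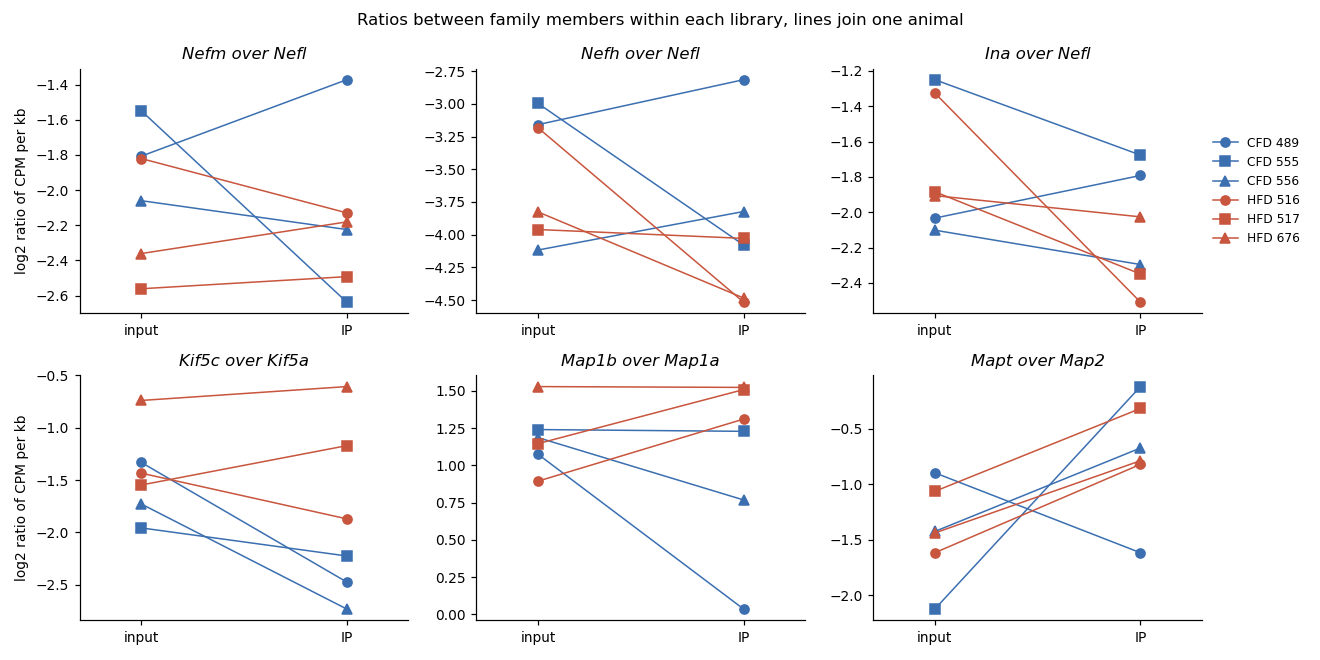
Log2 ratio of the levels per kilobase of 6 pairs of related genes (vertical axes) in the input and the IP of each animal, joined by a line (blue, CFD; red, HFD). The Mapt over Map2 ratio is higher in the IP of 5 of 6 animals and lower in that of animal 489. Map2 by itself was lower in the IP of the same 5 animals.

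Other genes of the same machinery were counted from 5 lists. edgeR's quasi-likelihood test called none of their tested members between diets, while in IP its likelihood ratio test and the fit with no filter each called Map7d1. At an unadjusted p under 0.05 there was no member in input, where DESeq2 called 0, and in IP there were 3 tubulins, 2 microtubule-associated proteins, 5 motors, 1 intermediate filament gene and 0 kinases or phosphatases, where DESeq2 called 5 genes of the lists. Over all genes tested, 10.9% had an unadjusted p under 0.05 in IP, and DESeq2 called 770. The 13 tubulin genes, the building blocks of microtubules, were split evenly in input, with 7 fitted higher in HFD and a median of 0.004 (log2), and in the IP 11 of 13 were fitted higher in HFD with a median of 0.57, where 51.3% of all genes and 2 of the 10 genes described were higher. Their summed level was 2477 to 3178 CPM in CFD IP and 3490 to 4879 in HFD IP, with no overlap. Tubb4a alone gave 1465 CPM of the mean sum of 2762 in CFD IP, and 2283 of 4232 in HFD IP. The share of other gene sets with such a gap was not computed, so nothing is read from it. The 29 other microtubule-associated proteins had medians of -0.01 in input and -0.03 in IP, and the 25 tested of 26 other axonal motors had medians of -0.09 and -0.10. The 9 tested of 12 other intermediate filament genes had medians of 0.98 in input and -0.98 in IP, at a summed level of at most 363 CPM. Some of the 9 had group means near 0, down to 0 CPM in CFD input and 0.15 in HFD IP, so nothing is read from these medians. The 14 kinases and phosphatases that act on tau and neurofilaments had medians of -4.3e-05 in input and -0.30 in IP.

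Between IP and input on CFD, 1 gene of the 29 other microtubule-associated proteins and 1 of the 14 kinases and phosphatases were called, as were 0.188% of all genes tested. edgeR gave an unadjusted p under 0.05 to 0 tubulins, 5 microtubule-associated proteins, 6 motors, 3 intermediate filament genes and 5 kinases or phosphatases. Of all genes tested, 11.8% had such a p. DESeq2 called 8 genes of the lists and 816 of all genes. With the animal as a block, edgeR called 3 genes of the lists and 139 of all genes. Cdk5r1, the p35 activator of the tau kinase Cdk5, rose from a mean of 73.3 to 233 CPM, a log2 fold change of 1.67 (SE 0.34, edgeR adjusted p = 0.071). It was higher in the IP of all 6 animals. The call was lost without animal 489, 517, 555 or 556, with adjusted p-values from 0.11 to 0.40, and over all alternatives these ran from 8.1e-05 to 0.40. Map7d1, which helps recruit kinesin-1 to microtubules, rose from 118 to 356 CPM, with a log2 fold change of 1.59 (SE 0.35, edgeR adjusted p = 0.096), and was higher in the IP of 4 of 6 animals. Its call was lost without the same animals, with adjusted p-values from 0.13 to 0.47, and over all alternatives these ran from 0.0012 to 0.47. On HFD edgeR called no gene of the 5 lists between IP and input, where 2 tubulins, 4 microtubule-associated proteins, 5 motors, 1 intermediate filament gene and 2 kinases or phosphatases had an unadjusted p under 0.05 and DESeq2 called 6 genes. Over all genes tested, 6.51% had such a p, and DESeq2 called 160.

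The 10 genes varied together only in part. Over the 12 libraries the root-mean-square difference between the centred log2 CPM of 2 of the genes was smallest for Map1b and Kif5c, 0.29, followed by Nefl and Kif5c, 0.31, and largest for Map1a and Map2, 0.76. Against the mean profile of the 10, Kif5c at 0.25 and Ina at 0.26 lay nearest and Map2 at 0.49 and Kif5a at 0.47 farthest, where the median gene tested lay at 1.34. Each of the 10 is itself part of that mean. The median gene tested also varied more within groups than the 10 genes did, and no value for genes of like level was computed. The nearest genes outside the list were Calm3 (0.14), a calmodulin gene, Atp1b2 (0.15), a sodium pump subunit of astrocytes, Rnf187 (0.16), Negr1 (0.17), a neuronal adhesion protein, and Aldoc (0.17), the aldolase of astrocytes. All of these are differences of log2 levels over 12 libraries from 6 animals, which share their library sizes and scaling.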

How the data were processed

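Whole white matter RNA and HA-ribosome-bound RNA of 6 mice were sequenced by the authors, and 12 libraries were analysed here. The deposited table gives raw read counts per gene and the authors' FPKM values (fragments scaled to gene length and library size), from which only the gene length was taken. The submitters' processing notes name STAR, HTSeq and mm10, without versions. The labels and the methods name different library kits. Columns with the authors' normalised counts, group averages, fold changes and p-values were not used. Counts were analysed with edgeR 4.0.16 in R 4.3.3: genes were kept by filterByExpr (minimum count 10, minimum total 15), which left 14354 of 24060, libraries were scaled by TMM, 4 group means were fitted, and the quasi-likelihood test was used with Benjamini-Hochberg adjustment over all genes, called at an adjusted p under 0.1. The common biological coefficient of variation was 101%. Log2 ratios per animal had 1 count added. DESeq2 1.42.0 and limma 3.58.1 gave alternatives. IP and input share a sample number in their titles. Deviations from group means correlated at 0.006 to 0.20 (median 0.038) between libraries of the same number. Between libraries of different numbers they correlated at -0.11 to 0.037 (median -0.018), so the ranges overlap. A number is taken here to mark 1 mouse, which the titles do not state, and the pairing of the libraries rests on this. No pair of libraries in a group agreed within sampling noise. The scripts were tested on simulated data. Text names the 10 genes, Rn45s and Lars2, called genes of the lists (at most 5 per comparison) and the 5 genes nearest the mean profile. Overlapping genes, promoters and genes used as checks were named in addition. Coordinates and promoters came from RefSeq GRCm38.p6 by symbol. The 10 genes, the 5 lists and the 8 marker lists were chosen with earlier results of these data known. Stmn2 and Camk2a are on the neuron list and on another list. The pericyte, blood, microglia and OPC lists summed to at most 38.3, 21.3, 230 and 304 CPM in any library.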

Additional observations from a re-analysis of the deposited data

How the results depend on the processing

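No member was called between diets in input under any alternative run. In HFD against CFD IP, Map1a and Kif5a were called with no filter (2 genes). For IP against input the 10 genes are described and not tested, and nothing is read from their calls: 1 of 10 on CFD with no filter, with DESeq2 and with the replicate block, and 1 of 10 on HFD with DESeq2. Over all genes, the calls in HFD against CFD input were 3 with no filter and 31 with DESeq2, and 0 to 1 when 1 animal was left out. In HFD against CFD IP they were 219 with no filter, 227 with the likelihood ratio test, 770 with DESeq2, 5 without Rn45s and Lars2, 2 at an adjusted p under 0.05, 3 with only the 6 libraries compared and 5 with the animal as a random replicate block, and 1 to 20 with 1 animal left out (20 without 489, 1 without 517). In CFD IP against input they were 312, 277 and 816 with the first 3 of these, 3 at the stricter threshold, 14 with 6 libraries, 139 with the replicate block and 2 to 52 with 1 animal left out (4 without 489, 2 without 555, 3 without 556, 52 without 516). In HFD IP against input they were 79, 4 and 160, then 0 without Rn45s and Lars2, 0 with 6 libraries, 24 with the replicate block and 0 to 35 with 1 animal left out (35 without 676). In the interaction they were 44, 37 and 121, and 0 to 1 with 1 animal left out.

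Of the 10 genes, the number fitted higher in HFD IP was 1 rather than 2 with relative log expression scaling, DESeq2, Rn45s and Lars2 left out, 6 libraries or the random block, since Nefl turned to -0.0196, -0.0196, -0.0178, -0.00850 and -0.00313; it was 1 to 4 with 1 animal left out, and in input 0 to 2. The median log2 fold change ran from -0.495 to -0.0714 in HFD against CFD IP (the latter without 676), and from -0.11 to 0.15 for the interaction (0.15 without 489, against -0.14 with all). With 1 animal left out, the log2 fold change in IP ran from -0.24 to 0.17 for Nefl, from -0.10 to 0.11 for Map1b, from -0.52 to 0.00486 for Nefm and from -0.35 to 0.18 for Mapt, and in input from -0.24 to 0.30 for Mapt and from -0.34 to 0.12 for Map2. The causes were not tested. Of the values of the 10 genes under alternatives, 671 kept their side of the threshold and their sign, or, where no test was made, moved by less than the spread between animals. A further 17 changed sign, and 2 values of the comparisons between diets, those of Map1a and Kif5a named above, passed the threshold. Each of the 2 list genes called in CFD IP against input, Cdk5r1 and Map7d1, also lost its call at the stricter threshold and with 6 libraries, and Map7d1 without Rn45s and Lars2. Each of the 10 genes had at least 1390 counts in each library, and libraries of a group differed by more than sampling noise. The source of this spread was not tested.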
